A study of Mus musculus with 15 samples.

Results

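The subject is a set of 182 T-cell receptor alpha chain CDR3 peptides that recurred across mouse prostate tumours. They were chosen by 1 rule on the tumour read counts, at least 10 reads in at least 3 of the 5 Tumour libraries, so their tumour reads are given as a description and carry no test. The 182 are 2.96% of the 6146 CDR3 peptides listed in any tumour, and the 15 libraries together list 92219. Of the 182, 94 reached 10 reads in 3 tumours, 49 in 4 and 39 in all 5.

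The study sequenced the alpha chains of sorted CD8 T cells from C57BL/6 male mice that all carry TCRbtg, a transgene that fixes the receptor beta chain. Naive libraries hold CD8b+ CD4neg CD44lo CD122neg cells and MP (memory-phenotype) libraries hold CD8b+ CD4neg CD44hi CD122+ cells, both from spleen and lymph nodes pooled, taken at 9 weeks of age without TRAMP. Tumour libraries hold CD8b+ CD4neg cells, with no CD44 or CD122 gate, from the prostate tumours of TCRbtg TRAMP+/- mice at 27 weeks; TRAMP is a transgenic mouse model of prostate cancer. Each group has 5 libraries. Tissue, age, genotype and sort all change together between the Tumour libraries and the others, so their parts in any difference cannot be told apart. The labels do not say whether a Naive and an MP library with the same number share a mouse, so a p-value measures the spread between libraries. The files list only CDR3 peptides and reads, so the labelled cell types could not be checked against marker genes.

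The CDR3 of the alpha chain is the loop made where a V segment is joined to a J segment (TRAJ), with bases trimmed and added at the join. Its middle residues come mostly from the join and usually lie over the peptide held by the MHC molecule, while its last residues are set by the TRAJ segment. With the beta chain fixed, most of the remaining difference between the receptors of these mice lies in the alpha chain.

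The peptides below are those of highest mean tumour share in the 13 families of 3 or more members, shown because the results turn on families that share an end and differ in the middle. A family holds members of equal length linked, directly or through others, by 1 substitution. The TRAJ names are background knowledge of the mouse J segments, read from the last residues.
family 1, 23 members, TRAJ34 end: AASASNTNKVV
family 2, 21 members, TRAJ30 end: AASATNAYKVI
family 3, 18 members, TRAJ22 end: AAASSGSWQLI
family 4, 16 members, TRAJ21 end: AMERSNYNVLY
family 5, 9 members, TRAJ24 end: AASEAASLGKLQ
family 6, 8 members, TRAJ21 end: ATMSNYNVLY
family 7, 7 members, TRAJ6 end: AASSGGNYKPT
family 8, 7 members, TRAJ27 end: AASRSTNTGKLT
family 9, 5 members, TRAJ48 end: AARPPRYGNEKIT
family 10, 5 members, TRAJ30 end: AASESTNAYKVI
family 11, 4 members: AGGKEGKLI
family 12, 3 members, TRAJ21 end: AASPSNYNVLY
family 13, 3 members, TRAJ26 end: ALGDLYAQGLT
Families 1 to 4 have 11 residues each and hold 78 of the 182 members, and the 8 largest families hold 109.

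Each library held 547665 to 943699 reads in all. The tumours listed only 934 to 2657 distinct CDR3s each, while an MP library listed 2216 to 13950 and a Naive library 14914 to 29559. A CDR3 is listed from 2 reads, and a CDR3 that is not listed was given a floor of 3 reads per library for any fold. Read shares count amplified RNA: a lower share can come from fewer cells or from less receptor RNA per cell, and these cannot be told apart. The reads carry no molecular identifiers, so intervals and floors cover counting error only.

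The 182 members took 50.2%, 59.1%, 49.1%, 48.8% and 40.6% of the reads of Tumours 1 to 5, a mean of 49.6% ± 6.56 (SD, n = 5). The same peptides took 9.39% ± 1.31 (SD, n = 5) of MP reads and 0.802% ± 0.0634 (SD, n = 5) of Naive reads. The groups did not overlap, but the rule chose peptides for being read in tumours. In MP, 1 member of 12 residues, the commoner in MP of the 2 with the TRAJ52 end, held 47.8% of these reads, and without it the MP share was 4.84% ± 0.486 (SD, n = 5).

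The members were very unequal in abundance. The 10 with the highest mean share took 27.7% ± 5.36 (SD, n = 5) of tumour reads, and between 6 and 8 of the 10 most abundant CDR3s of each tumour were members. Mean tumour share ran from 0.00150% to 6.38% with a median of 0.0720%: 10 members lay at 1% or above, 60 between 0.1% and 1%, 84 between 0.01% and 0.1%, and 28 below. The tumours differed in how many members they held, with 145, 166, 104, 150 and 108 reaching 10 reads in Tumours 1 to 5. Pairs of tumours shared from 65 members (Tumours 3 and 5) to 138 (Tumours 2 and 4).

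**Figure D1:**
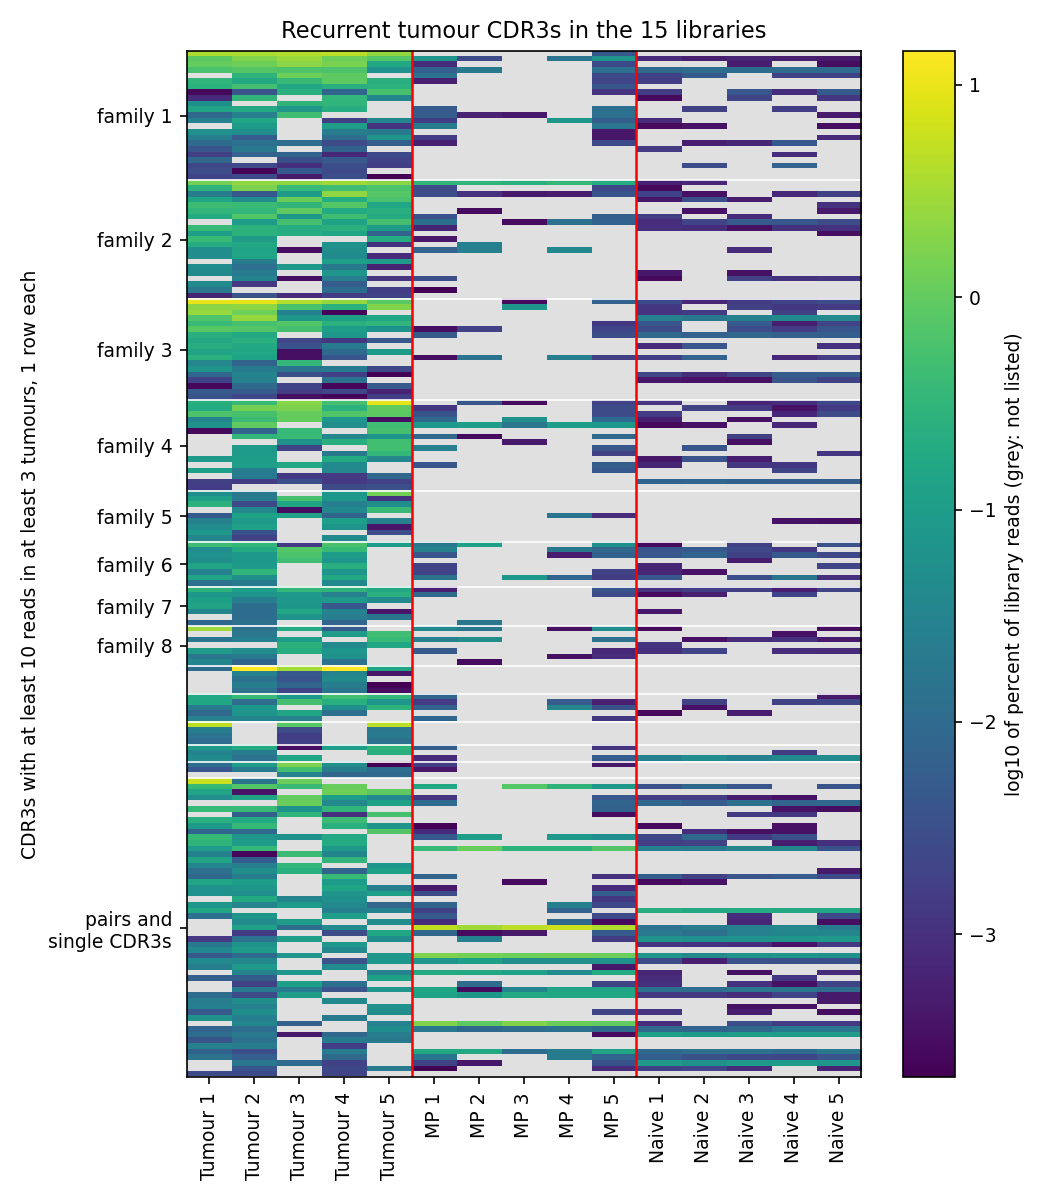
Share of library reads (colour, log10 of percent; grey, not listed) of the 182 recurrent tumour CDR3s, 1 row each, in the 15 libraries. Rows are ordered by family and, within a family, by mean tumour share. The tumour columns list 117 to 169 members each and the Naive columns 60 to 79. MP 1 and MP 5 list more members (77 and 85) than MP 2, MP 3 and MP 4 (33, 24 and 32).

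At the edge of the rule, 28 members had 10 to 19 reads in their third-highest tumour and 24 CDR3s just outside had 5 to 9. The mean tumour share had a median of 0.00630% in the 28 and 0.00909% in the 24, and 16 of the 28 and 9 of the 24 were listed in no Naive or MP library. Over all members the third-highest tumour had a median of 198 reads and at most 27011.

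Recurrence did not mean equal abundance. Among the 56 members listed in all 5 tumours, the highest tumour exceeded the lowest by a median of 12.5 times, and 15 members differed by more than 100 times. The narrowest range, 1.82 times, was that of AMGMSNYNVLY, a family 4 peptide. It took 0.646%, 0.562%, 1.03%, 0.699% and 0.881% of the reads of Tumours 1 to 5, a mean of 0.763% ± 0.188 (SD, n = 5).

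AASASNTNKVV, which leads family 1, had the highest floor of any member across tumours. It took 3.62%, 3.51%, 3.99%, 4.50% and 2.35% of Tumours 1 to 5, a mean of 3.59% ± 0.798 (SD, n = 5). Its 5 tumour values lay close together, with Tumour 5 lowest. Outside the tumours it was listed in MP 5 alone, at 0.00453%, and in no Naive library.

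AASATNAYKVI, which leads family 2, was nearly as even. It took 1.39%, 2.33%, 2.32%, 2.98% and 2.08% of Tumours 1 to 5, with Tumour 1 lowest and Tumour 4 highest. Unlike AASASNTNKVV it was listed in all 5 MP libraries, at 0.318%, 0.303%, 0.264%, 0.347% and 0.212%, and in Naive only in libraries 1 and 2, at 0.000569% and 0.000730%. The 3 groups did not overlap.

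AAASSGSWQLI, which leads family 3, was uneven. It took 10.0%, 9.35%, 4.10%, 2.48% and 0.848% of Tumours 1 to 5, high in Tumours 1 and 2 and lowest in Tumour 5. It was listed in all 5 Naive libraries at 0.000730% to 0.00267% and in MP 3 and MP 5 at 0.000299% and 0.00716%. Its MP and Naive ranges overlapped, and every tumour lay above both.

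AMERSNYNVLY, which leads family 4, was concentrated in 1 tumour. It took 0.225%, 0.405%, 2.04%, 0.550% and 9.47% of Tumours 1 to 5, so Tumour 5 stood far above the rest. In family 1, AASPSNTNKVV took 0.884%, 1.74%, 2.76%, 1.25% and 0.769% of Tumours 1 to 5. AASAANTNKVV took 1.04%, 1.24%, 2.06%, 1.54% and 0.163%. Tumour 3 was the highest for both, and Tumour 5 the lowest. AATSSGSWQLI, of family 3, took 2.13%, 2.17%, 0.588%, 0.263% and 1.72%, with Tumours 3 and 4 low.

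The remaining 3 of the 10 most abundant members were listed in no MP or Naive library and were low or not listed in some tumours. AARPPRYGNEKIT, the most abundant by mean, took 0.0109%, 14.5%, 3.04%, 14.2% and 0.148% of Tumours 1 to 5: it was the bulk of family 9 and rested on Tumours 2 and 4. AGGKEGKLI took 5.01%, 0.797% and 4.83% of Tumours 1, 3 and 5 and was not listed in Tumours 2 and 4. AVRFGGGYKVV took 5.88%, 0.0154% and 1.13% of Tumours 1, 2 and 3, was not listed in Tumours 4 and 5, and had no partner by 1 substitution among the members. Set against the MP floor, the mean tumour share was at least 14569-fold higher for AARPPRYGNEKIT, at least 4857-fold higher for AGGKEGKLI and at least 3207-fold higher for AVRFGGGYKVV. These peptides were picked for high tumour shares, so the folds follow in part from that choice and carry no test.

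**Figure D2:**
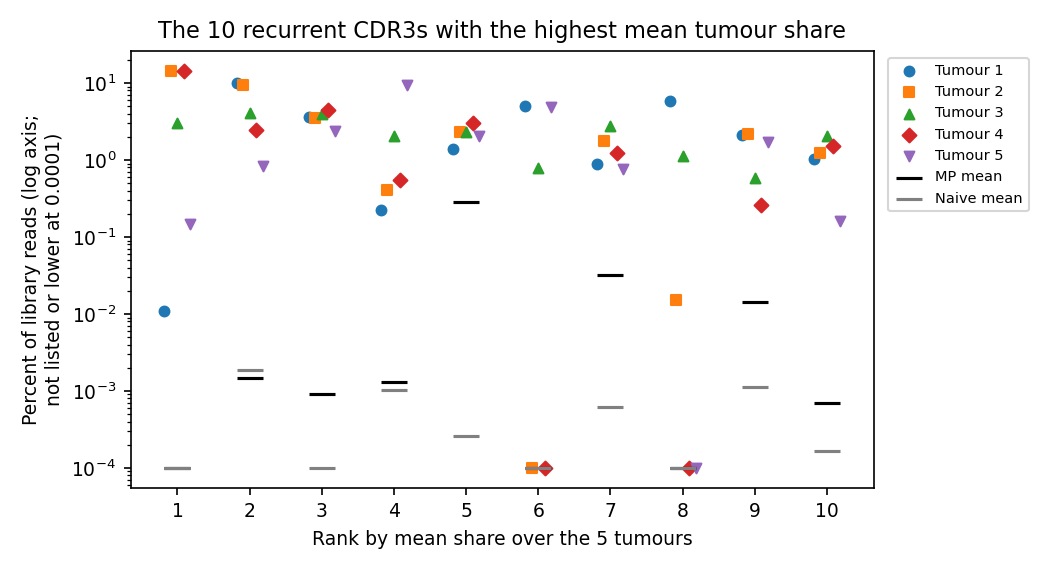
Percent of library reads (log axis; 0.0001 marks not listed or lower) of the 10 recurrent CDR3s with the highest mean tumour share, in rank order from AARPPRYGNEKIT (1) to AASAANTNKVV (10); points are the 5 tumours and bars the MP and Naive means. The third, AASASNTNKVV, and the fifth, AASATNAYKVI, have tightly grouped tumours, while the first spans 0.0109% to 14.5%.

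The members were more alike in length than the CDR3s they were compared with. Of the 182, 112 had 11 residues (61.5%), against 30.2% of the 3045 tumour CDR3s that reached 10 reads in only 1 or 2 tumours. When the same rule was applied to the 5 MP libraries (1350 CDR3s) and the 5 Naive libraries (4390 CDR3s), 20.1% and 27.8% had 11 residues. The range was 7 to 14 residues with a mean of 11.1 ± 0.935 (SD over members), against 11.5 ± 1.66 in 1 or 2 tumours, 10.5 ± 1.70 under the MP rule and 11.3 ± 1.41 under the Naive rule. The net charge, counted as K and R less D and E, averaged 0.478 ± 0.846 in the members and 0.562, 0.597 and 0.541 in the other sets, so it differed by far less than its spread. A cysteine occurred in 5 members (2.75%).

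The first residues were also uneven. The start AAS opened 74 members (40.7%), against 14.0% in 1 or 2 tumours, 13.9% under the MP rule and 17.3% under the Naive rule. AA opened 101 members, AM 22, AL 20 and AV 12. Only 29 members met the same rule in MP and 34 in Naive, of which 15 met it in both. These comparisons describe lists that share libraries and families, so they carry no test.

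By the last 6 residues there were 35 different ends, and the 4 commonest closed 100 of the 182 members (54.9%). The 4 commonest ends of each other set closed 23.0% of the CDR3s in 1 or 2 tumours, 27.3% under the MP rule and 30.3% under the Naive rule. The ends described next were picked as the commonest among the members, which in part fixes that they are less common elsewhere. NYNVLY, the end of TRAJ21, closed 30 members (16.5%), and closed 5.16% of CDR3s in 1 or 2 tumours, 2.81% under the MP rule and 3.01% under the Naive rule. NAYKVI (TRAJ30) closed 26 (14.3%, against 6.93%, 4.81% and 5.51%).

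GSWQLI (TRAJ22) closed 23 members (12.6%, against 5.39%, 2.44% and 2.44% in the same 3 sets). NTNKVV (TRAJ34) closed 21 (11.5%, against 5.48%, 7.33% and 5.47%). NTGKLT, shared by TRAJ27 and TRAJ52, closed 10 (5.49%, against 4.66%, 6.67% and 7.54%), and NQGKLI (TRAJ23) closed 4 (2.20%, against 4.27%, 8.30% and 11%).

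Similarity between members was extensive. Of the 182, 143 (78.6%) had at least 1 other member at equal length and 1 substitution, in 302 pairs and 20 families, of which 7 were pairs, and 39 members had no partner. A partner within the own set was found for 63.8% of CDR3s in 1 or 2 tumours, 78.2% under the MP rule and 88.5% under the Naive rule, all larger sets in which a partner is easier to find. A partner among the 182 members themselves was found for 17.3%, 10.7% and 6.42% of those sets.

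**Figure D3:**
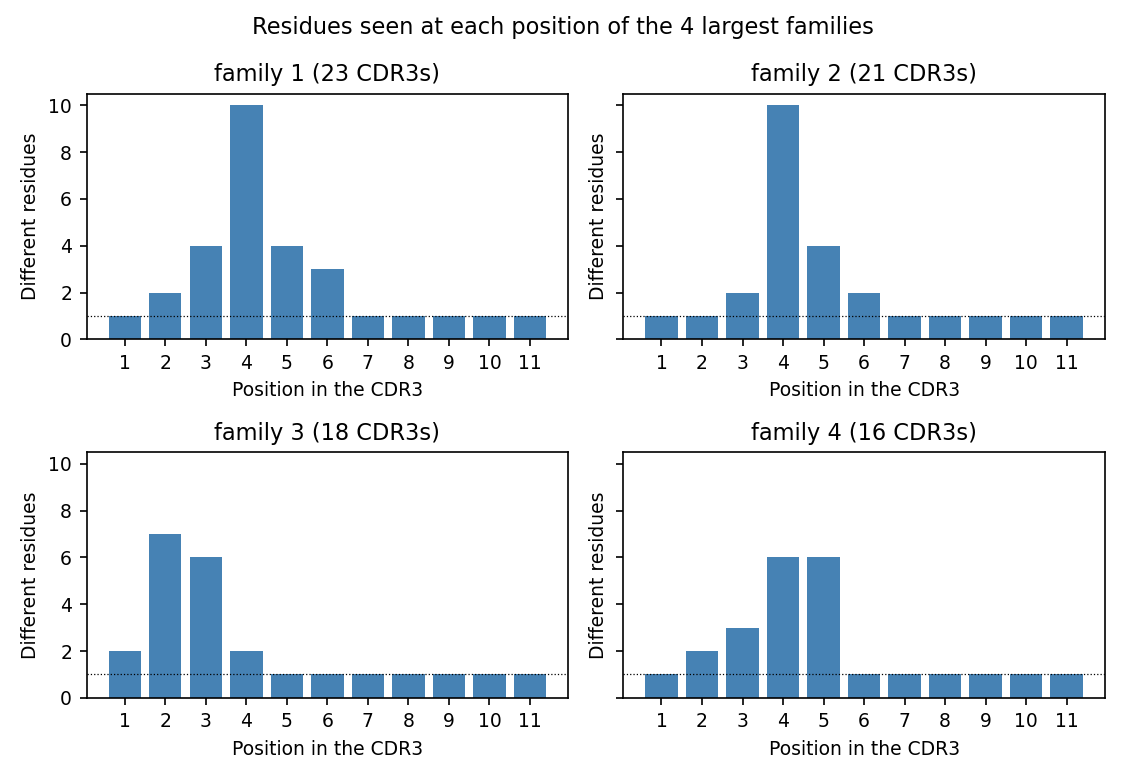
Number of different residues at each position (position 1 is the first residue listed) of the 4 largest families of recurrent CDR3s; the dotted line marks 1 residue, a constant position. Families 1 and 2 vary most at position 4 (10 residues each), family 3 at positions 2 and 3 (7 and 6 residues) and family 4 at positions 4 and 5 (6 residues each), and all 4 are constant from position 7 on. Members far rarer than a partner by 1 substitution are counted like the others.

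Within the 4 largest families the last 5 positions were constant. In family 1 position 4 took 10 different residues and 6 of the 11 positions were constant. In family 2 position 4 also took 10 residues, and 7 positions were constant. In family 3, position 2 took 7 residues and position 3 took 6, so the variable stretch lay nearer the start than in the other 3. These counts include members with a partner at least 100 times as abundant in every tumour where they reached 10 reads. Families 1 to 4 held 7, 1, 4 and 2 such members. In family 1 only such members had a residue other than N at position 6.

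As a whole, families 1 to 4 took 30.5% ± 4.96 (SD, n = 5) of tumour reads, 0.538% ± 0.0864 (SD, n = 5) of MP reads and 0.0989% ± 0.0112 (SD, n = 5) of Naive reads. They held 27 of the 39 members that reached 10 reads in all 5 tumours. Family 1 took 7.09%, 9.07%, 12.4%, 11.1% and 4.56% of Tumours 1 to 5, a mean of 8.85% ± 3.14 (SD, n = 5). Family 2 took 4.16%, 6.77%, 6.34%, 8.28% and 5.59%, a mean of 6.23% ± 1.52 (SD, n = 5). Both were present at more than 4% in every tumour.

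Family 3 took 17.7%, 17.5%, 6.45%, 3.38% and 3.22% of Tumours 1 to 5 and was highest in Tumours 1 and 2. Family 4 took 1.37%, 4.52%, 6.73%, 2.19% and 13.8%, highest in Tumour 5, where family 3 was lowest. Family 9 took 0.0109%, 14.6%, 3.06%, 14.3% and 0.148%, nearly all of it AARPPRYGNEKIT.

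Peptides of 1 family could be highest in different tumours. In family 2, AASRANAYKVI took 0.281%, 1.64%, 0.366%, 0.463% and 0.625% of Tumours 1 to 5. AASAANAYKVI took 0.0229%, 0.00449%, 0.0992%, 2.27% and 0.783%. AASVANAYKVI took 0.147%, 0.0492%, 1.18%, 0.210% and 0.580%. The highest tumour was Tumour 2 for the first, Tumour 4 for the second and Tumour 3 for the third, although they differ only at position 4.

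In family 3, ADASSGSWQLI took 2.56%, 1.23%, 0.0279% and 0.000245% of Tumours 1 to 4 and was not listed in Tumour 5. In family 4, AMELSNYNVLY took 0.198%, 1.42%, 1.63%, 0.255% and 0.972% of Tumours 1 to 5, with Tumours 1 and 4 low. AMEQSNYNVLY took 0.0327%, 0.418%, 1.03%, 0.0746% and 0.000318%, so Tumour 5, which held the most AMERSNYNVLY, held almost none of it. In family 1, AASSSNTNKVV took 0.606%, 0.728%, 0.687%, 0.649% and 0.0588%, even in 4 tumours and low in Tumour 5. All 4 leading peptides of family 1 had their lowest share in Tumour 5.

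Family 5, with the TRAJ24 end, was the least seen outside the tumours of the 5 largest families, with 7 of its 9 members listed in no MP or Naive library. As a whole it took 0.638%, 0.432%, 0.845%, 0.448% and 1.85% of Tumours 1 to 5, a mean of 0.842% ± 0.586 (SD, n = 5). Its leading peptide AASEAASLGKLQ took 0.0537%, 0.0194%, 0.0734% and 1.37% of Tumours 1, 2, 4 and 5 and was not listed in Tumour 3. AASKAASLGKLQ took 0.125%, 0.0207%, 0.563%, 0.0790% and 0.00106%, so the 2 peptides led in different tumours. AASSTASLGKLQ was highest in Tumour 1 at 0.267% and AASVAASLGKLQ in Tumour 5 at 0.390%. In family 8, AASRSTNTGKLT, the most abundant member with the NTGKLT end, took 2.88% of Tumour 1 and at most 0.191% of any other.

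Some members differed greatly in abundance from a peptide 1 substitution away. For 21 members, another CDR3 at 1 substitution had at least 100 times the reads in every tumour where the member reached 10 reads, and in all 21 cases the most abundant such CDR3 was itself a member. The median over tumours of the member's reads as a percent of that partner's ran from 0.0536% to 0.393%. Family 1 held 7 of the 21, and 4 of the 5 peptides of family 9 were among them: AARPPRCGNEKIT stood at 0.147% to 0.216% of AARPPRYGNEKIT in 3 tumours and AARPPRHGNEKIT at 0.157% to 0.251%.

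Of these 21 members, 15 were listed in no Naive or MP library and 6 were listed. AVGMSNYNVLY was 0.192% to 0.311% of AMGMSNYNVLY in the 5 tumours, yet in Naive it was the commoner of the pair, at a mean of 0.00700% against 0.00102%. A wider rule, met by more than these 21, was used for folding, in each library separately. Any CDR3 with a partner at least 100 times as abundant in that library was folded into it. The folding left 139 of the 182 members and lost 43. Before it, 49 members had such a partner in some tumour where they reached 10 reads. Whether these rarer copies come from amplification or sequencing errors was not tested.

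Outside the tumours, 51 of the 182 members (28.0%; exact 95% binomial interval 21.6% to 35.1%) were listed in none of the 10 Naive and MP libraries. Of the rest, 19 were listed in MP only, 28 in Naive only and 84 in both. The interval treats members as independent, which families are not. Of the 182 members, 13 occurred in every MP library and 30 in every Naive library. Of these, 8 occurred in every library of both groups, and none in all 15 libraries. Among all 92219 CDR3s of the series, the matching counts were 483 for MP and 4440 for Naive. Both are smaller parts of the 92219 than 13 and 30 are of the 182, a description that carries no test. The 51 that were not listed took 12.6% ± 4.28 (SD, n = 5) of tumour reads.

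The listing in MP depended on MP 1 and MP 5, which also list the most distinct CDR3s. They listed 77 and 85 members, against 33, 24 and 32 in MP 2 to 4. Without both, 64 members (35.2%) were listed nowhere outside the tumours. The libraries' difference in the number of distinct CDR3s was not tested as a cause.

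CDR3s that reached 10 reads in more tumours were listed in spleen and lymph nodes more often. The share not listed in any Naive or MP library was 50.5% (exact 95% interval 48.6% to 52.4%) for those in 1 tumour, 34.3% (29.0% to 39.9%) in 2, 38.3% (28.5% to 48.9%) in 3, 18.4% (8.76% to 32.0%) in 4 and 15.4% (5.86% to 30.5%) in 5. The order was not strict, since 3 tumours lay above 2, with overlapping intervals. The share listed in Naive was 43.2%, 56.2%, 53.2%, 67.3% and 74.4% for 1 to 5 tumours, and the share listed in MP 30.6%, 48.4%, 47.9%, 63.3% and 69.2%. Abundance rose with recurrence too: the median of the mean tumour share was 0.00190%, 0.0101%, 0.0339%, 0.0830% and 0.405% for 1 to 5 tumours. The parts of abundance and recurrence in the listing were not tested.

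When 1 tumour was held out, recurrence in the other 4 could be set against reads the choice did not use. CDR3s that the other 4 tumours listed below 10 reads only reached 10 reads in the held-out tumour in 1.48% ± 0.651 (SD, n = 5 held-out tumours) of cases. Those with 10 reads in 1, 2, 3 or 4 of the others did so in 5.77% ± 4.22, 25.8% ± 13.7, 53.0% ± 18.2 and 81.9% ± 13.8 of cases. CDR3s recurrent in 3 or 4 of the others took 39.8% ± 9.27 (SD, n = 5) of the held-out tumour's reads. The 5 values share tumours with one another and are given without a test.

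**Figure D4:**
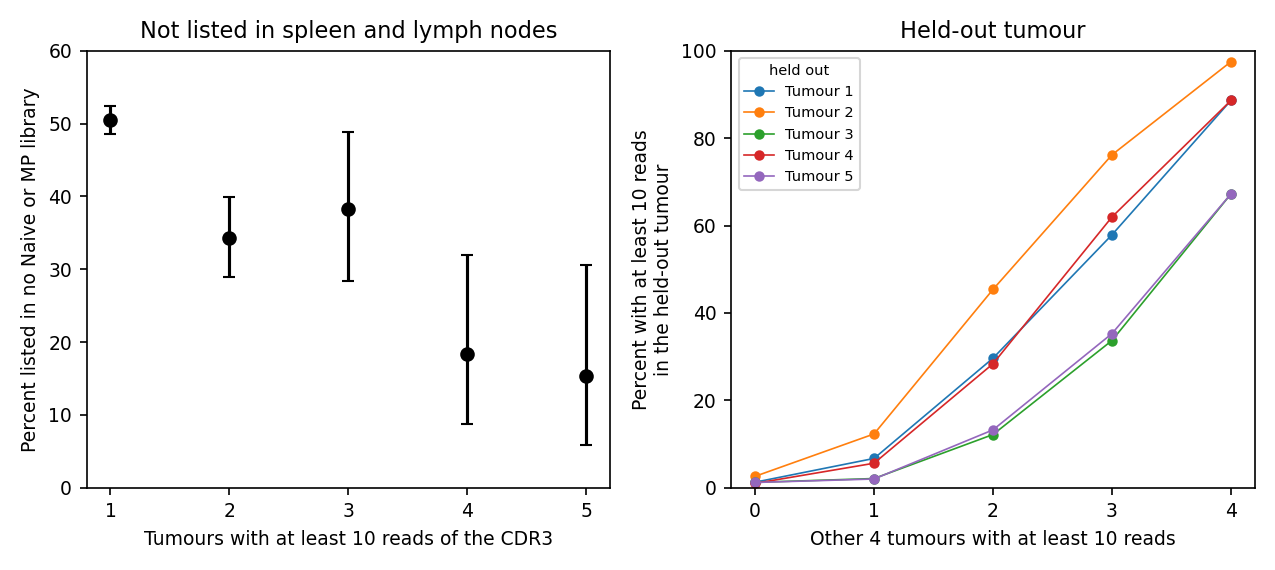
Left, percent of tumour CDR3s listed in no Naive or MP library by the number of tumours in which they reached 10 reads, with exact 95% binomial intervals over CDR3s; it is 50.5% for 1 tumour and 15.4% for 5. Right, percent of CDR3s that reached 10 reads in a held-out tumour by the number of the other 4 tumours in which they did, 1 line per held-out tumour; each line rises from left to right, and Tumours 3 and 5 lie lowest from 1 other tumour upward.

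The MP and Naive libraries played no part in the choice, so the difference between them could be tested. MP cells were sorted as CD44hi CD122+ and Naive cells as CD44lo CD122neg. Of 5954 CDR3s tested with edgeR's quasi-likelihood test, 12.6% were higher in MP and 48.1% lower at a Benjamini-Hochberg adjusted p below 0.05. Only 61 of the 182 members had enough reads to be tested (10 reads in at least 3 of the 10 libraries). Among the 61, 19 were higher in MP (31.1%), 7 were lower (11.5%) and 35 were not called, with 30 below an unadjusted p of 0.05. The median log2 fold change, MP over Naive, was 1.50 in the 61 and -3.35 over all tested.

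These counts follow in part from the read filter. Of the 19 members higher in MP, 13 were among the 14 that passed it through MP libraries alone, and all 7 lower members were among the 19 that passed through Naive libraries alone. Of the 15 that passed in both groups, 6 were higher in MP and 9 were not called. The counts therefore describe the tested members and no more, and they say nothing of the 121 members not tested. The folds and adjusted p-values given below for members that passed through 1 group alone carry the same limit. Leaving out the Naive libraries in turn gave 13 or 14 higher members, and leaving out MP libraries gave 12 to 21, with 12 without MP 1 and 13 without MP 5. Over all CDR3s these fits called 9.68% to 12.7% higher. Without both MP 1 and MP 5 more members were lower than higher: 11 were higher in MP and 16 lower, of 40 tested. The shares over all CDR3s moved the same way, from 12.6% higher and 48.1% lower to 7.31% and 70.6% in that fit.

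The commoner in MP of the 2 members with the TRAJ52 end had the highest MP share of all 182 and was rare in tumours. It took 4.90%, 2.94%, 4.83%, 6.27% and 3.79% of MP 1 to 5, against 0.0148% to 0.0371% of the Naive libraries, and 0.125%, 0.0112% and 0.0452% of Tumours 2, 3 and 4. All MP libraries lay above all others, and it was not listed in Tumours 1 and 5. Its log2 fold change, MP over Naive, was 7.58 ± 0.51 (SE; adjusted p = 5.59e-05, edgeR).

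The next members by MP share also had tumour means below their MP means. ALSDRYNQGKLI (TRAJ23 end) took 1.36% ± 0.206 (SD, n = 5) of MP reads, 0.0608% ± 0.0132 of Naive reads and at most 0.0756% of a tumour (log2 fold change 4.48, adjusted p = 0.000278, edgeR). APSNSGTYQR took 1.32% ± 0.409 (SD, n = 5) of MP reads, 0.00137% of Naive reads and at most 0.0357% of a tumour (log2 fold change 9.89, adjusted p = 0.000662, edgeR). AITGYQNFY (TRAJ49 end) took 0.546% ± 0.350 (SD, n = 5) of MP reads, 0.0236% of Naive reads and up to 0.353% of a tumour (log2 fold change 4.53, adjusted p = 0.000864, edgeR). For all 3 the tumour and Naive ranges overlapped, and the highest tumour value of AITGYQNFY lay within its MP range. APSNSGTYQR passed the read filter through MP libraries alone, so its fold follows in part from the filter. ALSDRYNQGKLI and AITGYQNFY passed in both groups.

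ALRGGKLI (log2 fold change 8.58), ALIGNTGKLI (6.90) and AHNYAQGLT (3.04) were also higher in MP and had mean tumour shares of 0.0267%, 0.0226% and 0.00675%, each below its MP mean of 0.151%, 0.142% and 0.107%. ALRGGKLI and ALIGNTGKLI passed the read filter through MP libraries alone, so their folds follow in part from the filter. AHNYAQGLT passed in both groups. AHNYAQGLT had an adjusted p of 0.0106 by edgeR, and its MP libraries were split, with MP 3 and MP 4 at 0.0109% and 0.0233% and the other 3 at 0.138% to 0.181%.

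AASATNAYKVI was the only 1 of the 10 members with the highest mean tumour share that was listed in all 5 MP libraries, and it was higher in MP than in Naive by a log2 fold change of 10.01 ± 1.41 (SE; adjusted p = 0.000662, edgeR). Its tumour mean of 2.22% ± 0.574 (SD, n = 5) lay above its MP mean of 0.289% ± 0.0524 (SD, n = 5). AASPSNTNKVV, another of the 10, was higher in MP by 5.64 (log2 fold change; adjusted p = 0.0117, edgeR), on MP values of 0.0700%, 0.00279%, 0.0167% and 0.0708% in MP 1, 2, 4 and 5, and it was not listed in MP 3. Both AASATNAYKVI and AASPSNTNKVV passed the read filter through MP libraries alone, so their folds follow in part from the filter.

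Other members higher in MP whose tumour and MP ranges overlapped included APYQGGRALI and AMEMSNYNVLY. APYQGGRALI took 0.363%, 0.719%, 0.377% and 1.07% of Tumours 1 to 4 and was not listed in Tumour 5. It took 0.161%, 0.772%, 0.293% and 0.0797% of MP 1, 3, 4 and 5, was not listed in MP 2, and had a mean Naive share of 0.00405%. Its log2 fold change, MP over Naive, was 6.00 (adjusted p = 0.0205, edgeR), and without Naive 1 the adjusted p was 0.0507. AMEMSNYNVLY, of family 4, took 0.0636%, 0.944%, 0.0514% and 0.486% of Tumours 1, 2, 4 and 5, and 0.0178% to 0.110% of the MP libraries (log2 fold change 8.06, adjusted p = 0.000706, edgeR). APYQGGRALI passed the read filter in both groups, and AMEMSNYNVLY through MP libraries alone.

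The 7 members lower in MP were listed in every Naive library, and all passed the read filter through Naive libraries alone. ALSDPTGYQNFY (TRAJ49 end) took 0.185% ± 0.0206 (SD, n = 5) of Naive reads and 0.00179% of MP reads, and was listed in Tumours 1, 4 and 5 at 0.169%, 0.0262% and 0.0298% (log2 fold change -6.69, adjusted p = 0.00978, edgeR). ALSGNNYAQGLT (TRAJ26 end) took 0.101% ± 0.00908 (SD, n = 5) of Naive reads, was listed in MP 5 alone with 2 reads, and took 0.000478% to 0.0236% of the tumours. Its Naive mean was 1727 times its MP mean (exact 95% Poisson interval of the MP reads, 478 to 14262; adjusted p = 0.000662, edgeR). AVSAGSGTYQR (-6.05, adjusted p = 0.00470, edgeR) and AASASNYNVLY (-4.94, adjusted p = 0.0265, edgeR) had Naive means of 0.0808% and 0.0387%, and the call of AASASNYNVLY was lost without Naive 2 (adjusted p = 0.0506).

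The other 3 were listed in no MP library, so their folds are lower bounds. AAISSGSWQLI, of family 3, took 0.0307% ± 0.00967 (SD, n = 5) of Naive reads, at least 70.0-fold higher than the MP floor. It took 0.669%, 2.47%, 0.0770%, 0.121% and 0.153% of Tumours 1 to 5, so every tumour lay above every Naive library. The Naive mean of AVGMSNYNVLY lay at least 16.0-fold higher than the MP floor and that of ATASSGSWQLI at least 7.77-fold higher, and both belong to the 21 members with a far commoner partner in the tumours.

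Among the leading family peptides, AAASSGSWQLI (log2 fold change -0.32, adjusted p = 0.873, edgeR) and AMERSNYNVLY (0.36, adjusted p = 0.845, edgeR) were not called. The value for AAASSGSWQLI rested on MP 5: without it the log2 fold change was -4.35 (adjusted p = 0.0101, edgeR). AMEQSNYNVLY was called higher in MP (6.26, adjusted p = 0.0318, edgeR), and the call was lost on leaving out Naive 2, 3, 4 or 5, with adjusted p from 0.0648 to 0.0717. It too passed the read filter through MP libraries alone.

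**Figure D5:**
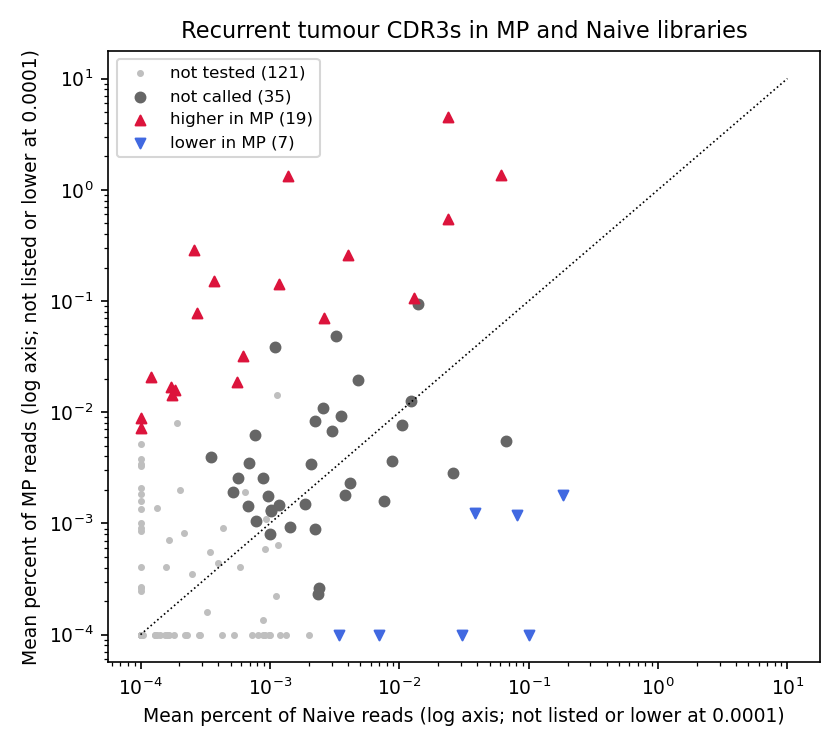
Mean percent of MP reads against mean percent of Naive reads (both log axes; 0.0001 marks not listed or lower) for the 182 recurrent tumour CDR3s, marked by the edgeR call; the dotted line marks equal shares. The 19 CDR3s higher in MP reach 4.55% of MP reads (the commoner of the 2 members with the TRAJ52 end), the 7 lower lie below the line, and the 121 not tested cluster at low values.

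Of the 51 members listed in no MP or Naive library, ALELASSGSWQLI and AASEAASLGKLQ followed the 3 already given in mean tumour share. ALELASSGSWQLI, with the TRAJ22 end and 13 residues, took 0.141%, 0.000385%, 1.27% and 0.934% of Tumours 1, 2, 4 and 5 and was not listed in Tumour 3. It was high in Tumours 4 and 5 only. Its mean lay at least 1071-fold higher than the MP floor, and that of AASEAASLGKLQ at least 692-fold higher. Both were picked for high tumour shares among members listed in no MP or Naive library, which in part fixes these folds.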

How the data were processed

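Reverse-transcribed alpha chain RNA was amplified by multiplex PCR by iRepertoire, per the labels' protocols, and the authors deposited read counts per CDR3 peptide, 1 list per library. The CDR3 caller, its error filter and its reference: not given in the sources used here. All 15 lists were used. The 182 members and the lists beside them were chosen with earlier results of these data known. Shares are percent of a library's summed reads. MP and Naive libraries were compared with edgeR 4.0.16 (R 4.3.3, robust quasi-likelihood fit, total reads as library size, no TMM). The fit covered the CDR3s that reached 10 reads in 3 or more of the 10 libraries, with Benjamini-Hochberg adjustment over all of them. The procedure was tested on simulated counts with the same spread for every CDR3 and without the read filter. That test does not cover the effect of the filter. Families, ends and near copies were counted in Python 3.11.15.

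CDR3s were named by rule: the 10 highest mean tumour shares, the 5 highest lowest shares, up to 10 called in each direction, the 5 highest unlisted, up to 4 in each of the 5 largest families, and the leading CDR3 of the 5 commonest ends; the leading CDR3 of other families and 2 near copies of AARPPRYGNEKIT were added after their values were seen. Alternatives were TMM, other read filters, DESeq2 1.42.0, a fold of at least 2, a replicate block, leaving out libraries, other recurrence thresholds, thinning to 547665 reads, folding near copies into their partners, and setting reads under 0.1% of a CDR3's highest tumour to 0. Leaving out MP 1 and MP 5 together when counting unlisted members was chosen after seeing the data.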

Additional observations from a re-analysis of the deposited data

Results flagged for a closer look

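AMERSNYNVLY took 9.47% of the reads of Tumour 5, against 0.225% to 2.04% in the other 4 tumours. The gap between Tumour 5 and the next tumour was 0.803 of the whole range.

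AVRFGGGYKVV took 5.88% of the reads of Tumour 1, and at most 1.13% of any other tumour. The gap was 0.808 of the range. These 2 samples stood apart among 36 groups of 5 libraries that were checked, and by chance about 1 group in 20 would show such a gap.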

How the results depend on the processing

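The main fit called 19 members higher in MP and 7 lower, of 61 tested (12.6% and 48.1% over all CDR3s). TMM called 18 and 7 (12.5% and 46.7% over all CDR3s) and DESeq2 22 and 8 (13.4% and 48.7%). A filter of 50 reads gave 17 and 6, of 32 tested (25.1% and 48.6% over all CDR3s). A fold of at least 2 gave 19 and 7, with the same shares over all CDR3s as the main fit. With listing in at least 2 of the 10 libraries as the only filter, 29 were higher and 18 lower, of 109 tested. Over all CDR3s the counts were then 2289 and 14848 of 28731, against 753 and 2863 of 5954 in the main fit. Without MP 1 and MP 5 together 11 were higher and 16 lower, of 40 tested, so more members were lower than higher. The shares over all CDR3s moved the same way, to 7.31% higher and 70.6% lower (356 and 3436 of 4867). Leaving out each library in turn gave 12 to 21 higher and 6 to 10 lower (9.68% to 12.7% and 42.5% to 57.3% over all CDR3s). The replicate block, with the library number as block, gave 12 higher and 8 lower (10.3% and 51.2% over all CDR3s). Among the named CDR3s AASPSNTNKVV (adjusted p = 0.151, edgeR), AHNYAQGLT (0.248) and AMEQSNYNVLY (0.0591) were then not called. Same-numbered libraries' deviations correlated at 0.0125 to 0.0471, and 2 of 5 correlated best with their own number, so the numbers were not taken to pair the libraries. The cause of these changes was not tested, beyond fewer CDR3s or libraries entering the fit.

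The 182 members became 88 when 4 tumours were required, and 103 to 147 when 1 tumour was left out, which follows from the rule. Their mean share of tumour reads, 49.6%, became 39.8% with 4 tumours and 40.7% to 48.7% with 1 left out. The share not listed in Naive or MP, 28.0%, became 45.6% when listing needed 10 reads, 20.4% with a rule of 50 reads, 17.0% with 4 tumours and 35.2% without MP 1 and MP 5. The share with a 1-substitution partner, 78.6%, became 71.2% with near copies folded. No named CDR3 called in either fit changed sign; of those not called, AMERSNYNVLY (0.36 to -1.47) and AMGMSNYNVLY (0.35 to -0.49) did with the replicate block, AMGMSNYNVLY also without MP 1 or MP 5, and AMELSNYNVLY (-0.29) with TMM (0.04), DESeq2 (0.23) and without MP 2, 3 or 4. A CDR3 below 2 reads was not detectable at this depth.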
